A study of Caenorhabditis elegans with 24 samples.

Results

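A set of 8 genes, for enzymes that make glucose, trehalose and glycerol from stored carbon, was followed through all 24 RNA-seq libraries of the series. They are *icl-1* of the glyoxylate cycle, *pck-1*, *pck-2* and *fbp-1* of gluconeogenesis, *tps-1* and *tps-2* of trehalose synthesis, and *gpdh-1* and *gpdh-2* of glycerol synthesis. The 8 genes were chosen by their WormBase names and matched to the gene identifiers of the deposited tables. All 8 were found in both tables, among 12958 genes in the table of HSF-1 depletion and 14206 genes in the table of germline nuclei, and all 8 passed the filter on low values.

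In *C. elegans*, ICL-1 joins both reactions of the glyoxylate shunt in 1 protein, which lets acetyl-CoA from fat enter carbohydrate synthesis. PEP carboxykinase (*pck-1*, *pck-2*) turns oxaloacetate into phosphoenolpyruvate, and fructose-1,6-bisphosphatase (*fbp-1*) later bypasses an irreversible step of glycolysis. Trehalose-6-phosphate synthase (*tps-1*, *tps-2*) links glucose units into trehalose, a sugar that worms store and that protects against drying and osmotic stress. Glycerol-3-phosphate dehydrogenase (*gpdh-1*, *gpdh-2*) supplies glycerol, the main osmolyte of worms in high salt, where *gpdh-1* is the copy known to be induced. The insulin/IGF-1 receptor DAF-2 restrains DAF-16/FOXO, and *daf-2* mutants are known for large stores of fat, glycogen and trehalose.

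The nuclei table holds young adults of the wild type (strain JTL621, with *unc-119(ed3)* on III) and of *daf-2(e1370)* (strain JTL642). From each strain, 3 libraries were made of enriched germline nuclei and 3 of whole worm lysate, without auxin and after light fixation in dimethylformamide. Both strains, the wild type included, carry the allele *ljt3* on I, which tags HSF-1 with a degron and GFP, and the transgene *ieSi38* on IV, in which the *sun-1* promoter drives the plant adaptor TIR1 with mRuby in the germline. The depletion table holds whole *daf-2(e1370)* animals of strain JTL642 in 4 groups of 3 libraries. They were kept on 1 mM auxin, which depletes HSF-1 from the germline, or on 0.25% ethanol as control, either for 16 h from the young-adult stage or for 88 h from egg lay. All worms grew at 20 °C on OP50 bacteria. The study calls libraries of a group biological replicates, and separate cultures are not described in the sources used here, so the p-values measure only the spread between these samples.

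Libraries held 20.9 M to 38.1 M reads (M for mega) in the depletion table, 21.97 M to 28.9 M in the whole worms of the nuclei table and 13.9 M to 19.2 M in the nuclei. Ribosomal RNA genes took 1.68 to 8.09% of the reads in the depletion table, 9.29 to 35.0% in the worms and 37.7 to 72.8% in the nuclei. Levels are given in CPM, read counts scaled by a library size that the authors adjusted, so the values are not plain shares of a library. The 2 tables were normalised separately and no test was made across them. Auxin removes HSF-1 protein and *e1370* is a point mutation, so the mRNA of neither gene checks the labels. The *hsf-1* mRNA stood at 61.5 to 78.6 CPM on ethanol and 70.6 to 78.1 CPM on auxin at 16 h, and at 58.0 to 65.6 and 64.5 to 71.9 CPM at 88 h. In bulk RNA, fewer cells of a type and less RNA per cell cannot be told apart. The label of the nuclei was compared with 12 germline markers, whose summed level was 836 to 1060 CPM in wild-type nuclei and 741 to 1012 CPM in wild-type worms. The 14 intestine markers summed to 532 to 643 CPM in wild-type nuclei and 1550 to 2848 CPM in wild-type worms. Intestine markers were thus lower in the nuclei but not absent, and the germline markers overlapped between both preparations.

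The loci lie on 5 chromosomes of the WBcel235 assembly, the build that the authors used. They are *icl-1* (WBGene00001564) at V:724332-728004, *pck-1* (WBGene00021043) at III:62888-66260, *pck-2* (WBGene00011232) at I:7866136-7872100 and *fbp-1* (WBGene00001404) at I:2581015-2586124. The others are *tps-1* (WBGene00006602) at X:17467121-17474534, *tps-2* (WBGene00006603) at II:14600902-14610554, *gpdh-1* (WBGene00009824) at I:14075837-14078211 and *gpdh-2* (WBGene00010778) at III:9854074-9859183. All 8 are protein-coding, with joined exon lengths from 1308 bases for *gpdh-1* to 4356 bases for *tps-1*, which has 21 exons. Exons of *gpdh-1* overlap those of *gadr-6* on the opposite strand, and exons of *pck-2* overlap those of *suro-1* on the opposite strand. Exons of *tps-2* overlap those of *arl-3* on the same strand, and *arl-3* is in neither table. The libraries were directional, but the settings stated for the counting name no strand option. Reads of a gene and of its overlapping partner therefore cannot be told apart. The mean level of *gadr-6* was 1.13 CPM in wild-type worms and 1.25 CPM in *daf-2(e1370)* worms. These are near the level of *gpdh-1* in *daf-2(e1370)* worms, 1.26 CPM on average. In the depletion table *gadr-6* stood at 4.72 to 8.78 CPM, where *gpdh-1* stood at 1.45 to 7.95 CPM. The mean of *suro-1* was 3.90 and 0.971 CPM in the same worms, where *pck-2* stood at 194 and 386 CPM, and 14.5 and 4.40 CPM in the nuclei, where *pck-2* stood at 86.5 and 239 CPM.

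Compared per kilobase of exon, *pck-2* was the highest of the 8 genes in every whole-worm group. It stood at 58.4 ± 13.8 CPM per kb (SD, n = 3) in wild-type worms, 116 ± 20.6 in *daf-2(e1370)* worms and 312 ± 4.38 in the 16 h ethanol group. In the nuclei *fbp-1* was the highest instead, at 73.3 ± 2.06 CPM per kb for the wild type and 118 ± 19.8 for *daf-2(e1370)*. The trehalose synthases were low everywhere, with *tps-1* between 1.04 and 8.62 and *tps-2* between 2.54 and 17.7 CPM per kb as group means. The lowest of the 8 was *gpdh-1* in 6 of the 8 groups, the exceptions being both groups of the wild type, where *tps-1* was lowest.

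**Figure D1:**
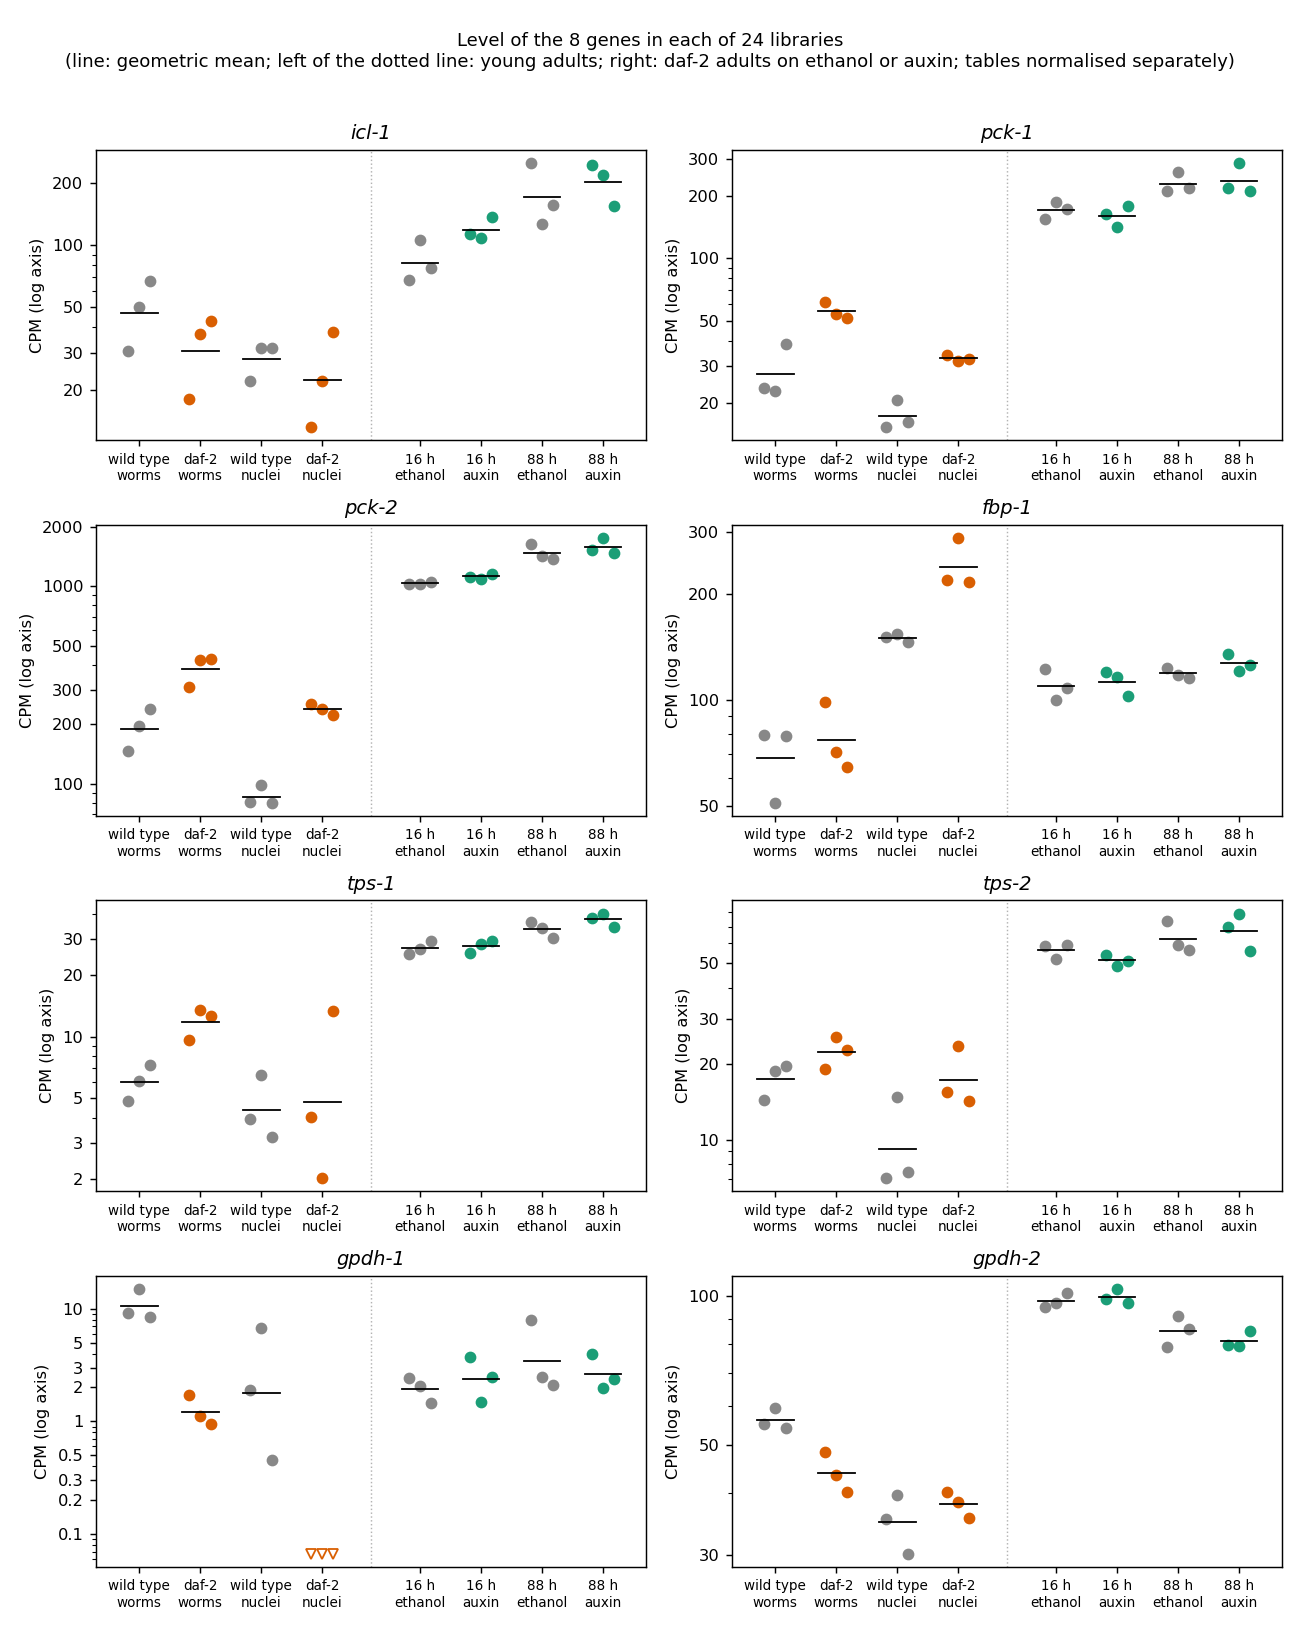
Level of each gene in CPM (log axis) in the 24 libraries, with 1 point per library, a line at the geometric mean of a group and open triangles for libraries with 0 reads. *pck-1* and *pck-2* are higher in both *daf-2(e1370)* groups than in the matching wild-type groups, *fbp-1* is higher in nuclei than in whole worms of the same strain, and the 3 *daf-2(e1370)* nuclei libraries hold 0 reads of *gpdh-1*.

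Young adults came first, and the comparison asks how reduced insulin/IGF-1 signaling sets these enzymes in whole young adults. PEP carboxykinase rose about as much in both copies, *tps-1* rose by a similar fold, and *gpdh-1* fell steeply. In all, 3 of the 8 genes rose and 1 fell (limma, adjusted p under 0.05), where 18% of 13613 genes tested were called, 927 higher and 1526 lower. The groups did not overlap for 5 of the 8 genes, against 40% of all genes. The median log2 fold change of the 8 genes was 0.26, and that of all genes was -0.02.

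*pck-2* stood at 147, 196 and 239 CPM in the wild-type worms and at 307, 422 and 429 CPM in *daf-2(e1370)* worms. The log2 fold change was 1.01 ± 0.29 (SE, adjusted p = 0.0371), and every *daf-2(e1370)* library was above every wild-type library. *pck-1*, its paralog, stood at 23.7, 22.9 and 38.6 CPM in the wild type and 61.2, 53.9 and 51.5 CPM in *daf-2(e1370)*. It rose by 1.01 ± 0.28 (adjusted p = 0.0323), and these groups did not overlap either. *fbp-1*, downstream of both, had 79.1, 51.0 and 79.0 CPM in the wild type and 98.2, 71.1 and 64.5 CPM in *daf-2(e1370)*. The groups overlapped and the log2 fold change of 0.17 had a 95% interval from -0.46 to 0.79 (adjusted p = 0.696).

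For trehalose synthesis, *tps-1* had 4.82, 6.07 and 7.24 CPM in the wild type and 9.63, 13.6 and 12.6 CPM in *daf-2(e1370)*. It rose by 0.98 ± 0.31 on the log2 scale (adjusted p = 0.0492) with groups apart. The second synthase, *tps-2*, had 14.4, 18.7 and 19.7 CPM in the wild type and 19.2, 25.6 and 22.7 CPM in *daf-2(e1370)*. These groups overlapped, and the log2 fold change of 0.36 had an interval from -0.23 to 0.95 (adjusted p = 0.346).

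The largest difference among the 8 genes was that of *gpdh-1*, the glycerol enzyme induced by salt. It stood at 9.10, 14.9 and 8.50 CPM in the wild type and at 1.70, 1.11 and 0.954 CPM in *daf-2(e1370)* worms. It fell by 3.10 on the log2 scale (SE 0.39, adjusted p = 0.000836), that is to 0.116 of the wild-type level with a 95% interval of 0.064 to 0.211. The *daf-2(e1370)* values rest on 55 to 108 reads per library and the wild-type values on 307 to 753. Its paralog *gpdh-2* had 55.0, 59.3 and 53.99 CPM in the wild type and 48.3, 43.4 and 40.1 CPM in *daf-2(e1370)*. Although these groups did not overlap, the log2 fold change of -0.35 ± 0.24 did not pass (adjusted p = 0.290). *icl-1* had 30.6, 50.3 and 67.3 CPM in the wild type and 17.96, 37.3 and 43.0 CPM in *daf-2(e1370)*. Its lowest and highest library differed 2.20-fold in the wild type and 2.40-fold in *daf-2(e1370)*, the groups overlapped, and the log2 fold change was -0.62 ± 0.39 (adjusted p = 0.265).

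Only *gpdh-1* kept its call without any 1 of the 6 libraries (adjusted p at most 0.00477), and the fit of all 12 libraries of the table gave it an adjusted p of 0.0658. Without replicate 1 of the wild type, or without replicate 2 or 3 of *daf-2(e1370)*, no other of the 8 genes passed. The other omissions left *pck-2* past the threshold without replicate 2 of the wild type, *pck-1* without replicate 3 of the wild type, and *pck-2* and *tps-1* without replicate 1 of *daf-2(e1370)*. The adjusted p over these omissions ran from 0.0296 to 0.119 for *pck-1*, from 0.0386 to 0.155 for *pck-2* and from 0.0485 to 0.214 for *tps-1*. The call of *tps-1* also ended with a pseudocount of 1 (0.0576), with median-of-ratios scaling (0.0501) and with all 12 libraries in the fit (0.413).

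Markers of other tissues moved with this comparison. Of 14 intestine markers, 7 rose and 1 fell, with a summed level of 1550 to 2848 CPM in the wild type and 3469 to 7107 CPM in *daf-2(e1370)* worms. Of 10 oocyte markers 4 rose (593 to 1014 and 961 to 1910 CPM), of 10 hypodermis markers 2 fell (772 to 1191 and 1324 to 1619 CPM), and of 10 sperm markers 2 fell (261 to 472 and 173 to 247 CPM). The hypodermis sum was thus higher in *daf-2(e1370)* worms, while the median log2 fold change of that list was -2.06. Of 12 germline markers 2 rose, of 10 body wall muscle markers 1 fell, and none of 10 neuron markers passed. Their part in the changes of the 8 genes was not tested.

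**Figure D2:**
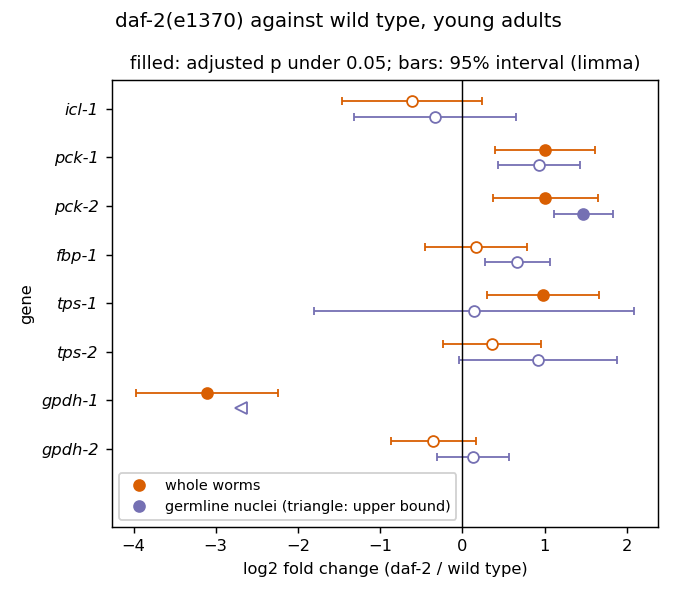
Log2 fold change of *daf-2(e1370)* against wild type for each gene in whole worms and in germline nuclei, with bars for the 95% interval of the limma fit and filled points for an adjusted p under 0.05. *pck-1* and *pck-2* lie near 1 or above in both preparations, and *gpdh-1* lies at -3.10 in worms and, in nuclei, at or beyond the bound drawn as a triangle 2.69 below 0.

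The same question was asked of germline nuclei. *pck-2* rose and was the only one of the 8 genes past the threshold, where 3.85% of 13613 genes were called, 183 higher and 341 lower. The groups did not overlap for 4 of the 8 genes, against 27% of all genes. The median of the 8 genes was 0.41, unchanged with *gpdh-1* set at its bound, and that of all genes was -0.15.

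*pck-2* had 80.7, 98.3 and 80.4 CPM in wild-type nuclei and 254, 239 and 223 CPM in *daf-2(e1370)* nuclei. This was a log2 fold change of 1.47 ± 0.15 (adjusted p = 0.0314), or 2.77-fold with a 95% interval of 2.16 to 3.55. *pck-1* had 15.3, 20.7 and 16.1 CPM in the wild type and 34.0, 31.8 and 32.7 CPM in *daf-2(e1370)*. Its groups were also apart, and the log2 fold change of 0.93 ± 0.21 missed the threshold (adjusted p = 0.0640). *fbp-1* had 151, 154 and 146 CPM in the wild type and 219, 288 and 216 CPM in *daf-2(e1370)*, likewise without overlap, with a log2 fold change of 0.67 ± 0.16 (adjusted p = 0.0769).

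*gpdh-1* had 1.92, 6.76 and 0.450 CPM in wild-type nuclei, which are 15, 48 and 4 reads. All 3 *daf-2(e1370)* nuclei libraries had 0 reads. A count of 0 allows up to 3 reads, which is 0.266 to 0.470 CPM in these libraries and counts sampling error only. Set against the highest of these limits per library, *gpdh-1* was at least 6.47-fold lower than the mean of the wild type, 3.04 CPM. The adjusted p was 0.0721 (limma), which depends on the value given to 0 reads. The third wild-type library lies within that limit, and without replicate 2, the highest, the wild-type mean was 1.18 CPM and the bound 2.52-fold. *tps-1* was spread from 2.03 to 13.4 CPM within *daf-2(e1370)* nuclei, from 22 to 85 reads, and its interval ran from -1.80 to 2.08. *tps-2* had 7.05, 14.7 and 7.43 CPM in the wild type and 15.5, 23.5 and 14.3 CPM in *daf-2(e1370)*, with a log2 fold change of 0.91 ± 0.40 (adjusted p = 0.247). *gpdh-2* (0.13, interval -0.31 to 0.56) and *icl-1* (-0.34, interval -1.32 to 0.65) had overlapping groups.

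Leaving out any 1 of the 3 *daf-2(e1370)* nuclei libraries ended the call of *pck-2* (adjusted p 0.0524 to 0.0825) and left no call among all genes, while its log2 fold change stayed between 1.42 and 1.52 in those fits. With all 12 libraries in the fit, *pck-1* (0.0309) and *gpdh-1* (0.00558) also passed, and the p of *gpdh-1* again depends on the value given to 0 reads. Among marker lists, 4 of 14 intestine markers rose and 2 fell (532 to 643 CPM in the wild type and 448 to 802 CPM in *daf-2(e1370)*), with *elt-2* at 0 reads in each *daf-2(e1370)* nuclei library. Of 10 oocyte markers 1 rose (499 to 627 and 1139 to 2099 CPM), and of 10 sperm markers 2 fell (543 to 788 and 264 to 412 CPM). Their part in the change of *pck-2* was not tested.

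Whether the effect of *daf-2(e1370)* differed between nuclei and whole worms was tested directly. None of the 8 genes passed (adjusted p 0.539 to 0.955), and 14 of 13613 genes did (0.103%, with 1666 genes at an unadjusted p under 0.05). Leaving out 1 library called none of the 8 genes and moved the count over all genes from 0 (without replicate 1 of the wild-type worms, or replicate 2 or 3 of the *daf-2(e1370)* worms) to 181 (without replicate 2 of the wild-type worms), with 101 to 172 without any 1 of the *daf-2(e1370)* nuclei. For *pck-2* the difference was 0.46 on the log2 scale with a 95% interval from -0.24 to 1.16, and for *pck-1* it was -0.08 with an interval from -0.86 to 0.70. For *fbp-1* it was 0.50 with an interval from -0.22 to 1.23. A gene that passed in 1 preparation and not in the other is therefore not shown to respond differently in them.

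Nuclei were then compared with whole worms of the same strain. In the wild type, *fbp-1* was higher in nuclei and 3 genes were lower, where 35.3% of all genes were called and the groups of 51.6% of all genes did not overlap. Of the 8 genes, 5 did not overlap. *fbp-1* was 1.14 ± 0.24 higher on the log2 scale (adjusted p = 0.00242), *pck-2* fell by 1.14 (SE 0.23, adjusted p = 0.00176) and *gpdh-2* fell by 0.69 (SE 0.21, adjusted p = 0.0198). *gpdh-1* was lower by an estimate that rests on 4 to 48 reads in the nuclei (log2 fold change -2.54 ± 0.92, adjusted p = 0.0447). The calls of *fbp-1* and *pck-2* held without any 1 of the libraries (adjusted p at most 0.0138), whereas that of *gpdh-1* ended in 5 of the 6 omissions, with median-of-ratios scaling (0.0513) and in the fit of the compared groups alone (0.0511). That of *gpdh-2* ended without replicate 3 of the nuclei (0.0611) or replicate 2 of the worms (0.0634). With the replicate number as a block, the pairing of these preparations, *icl-1* (0.0287) and *tps-2* (0.0235) were also called lower in nuclei.

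In *daf-2(e1370)*, *fbp-1* was again higher in nuclei, by 1.64 ± 0.24 (adjusted p = 7.87e-05), or 3.11-fold with an interval of 2.18 to 4.45. *pck-1* fell by 0.75 (SE 0.26, adjusted p = 0.0233) and *pck-2* by 0.68 (SE 0.23, adjusted p = 0.0230). *gpdh-1*, at 0 reads in the nuclei, was at least 2.67-fold lower there than the mean of 1.26 CPM in the worms (adjusted p = 0.00178). That p depends on the value given to 0 reads, and the call ended with a pseudocount of 1 (0.0762). These 4 calls stand beside 53.3% of all genes called, and the groups of 4 of the 8 genes did not overlap, against 60.6% of all genes. The shares are those of a comparison in which most genes differ, and the median over all genes was -0.34 for the wild type and -0.63 for *daf-2(e1370)*. The call of *fbp-1* held in every omission (adjusted p at most 0.000694). The call of *pck-1* ended without replicate 2 of the nuclei (0.0525) or replicate 1 (0.0638) or 2 (0.0571) of the worms. The call of *pck-2* ended without replicate 3 of the nuclei (0.0642) or replicate 2 (0.0832) or 3 (0.0856) of the worms. *tps-1* passed only without replicate 3 of the nuclei, its high library (-2.04, adjusted p = 0.00445). Of the intestine markers, 9 of 14 were lower in nuclei for the wild type and 12 of 14 for *daf-2(e1370)*. Body wall muscle markers were lower for 7 of 10 in each strain and oocyte markers for 6 and 7 of 10. Germline markers were lower for 3 and 5 of 12 and higher for 2 and 3, and the part of these lists in the differences of the 8 genes was not tested.

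PEP carboxykinase, trehalose synthase and glycerol-3-phosphate dehydrogenase are each encoded by a pair of paralogs, so the balance between copies was followed within each library, per kilobase of exon. *pck-2* exceeded *pck-1* in every library, with group means between 3.11 and 4.51. Wild-type nuclei had ratios of 3.28, 2.95 and 3.10 and *daf-2(e1370)* nuclei had 4.64, 4.66 and 4.24, and the groups did not overlap. In whole worms that ratio did overlap, at 4.34 ± 0.849 for wild type and 4.39 ± 1.11 for *daf-2(e1370)* (SD, n = 3, exact permutation p = 1). *tps-2* exceeded *tps-1* in every library too. That ratio was 3.38, 3.49 and 3.08 for wild-type worms and 2.26, 2.15 and 2.05 for *daf-2(e1370)* worms, again apart. In nuclei the *tps* ratio was spread from 1.21 to 13.1 over the *daf-2(e1370)* libraries, overlapping the 2.04 to 2.62 of the wild type.

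The glycerol pair changed the most. *gpdh-2* exceeded *gpdh-1* by 5.13, 3.38 and 5.39 times in wild-type worms and by 24.1, 33.1 and 35.7 times in *daf-2(e1370)* worms. In the depletion table, where every animal is *daf-2(e1370)*, the group means of this ratio were 24.8 to 44.3. The lowest of these means, in the 88 h ethanol group, came from libraries at 8.44, 31.2 and 34.6. Wild-type nuclei had ratios of 15.7, 4.98 and 56.9, where *gpdh-1* rested on 4 to 48 reads, so a low ratio did not mark every wild-type library. With 3 libraries against 3, an exact two-sided permutation test cannot give a p below 0.1, and each of the 3 differences with groups apart named here had that p (0.44 after Benjamini-Hochberg adjustment over 22 ratio comparisons).

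**Figure D3:**
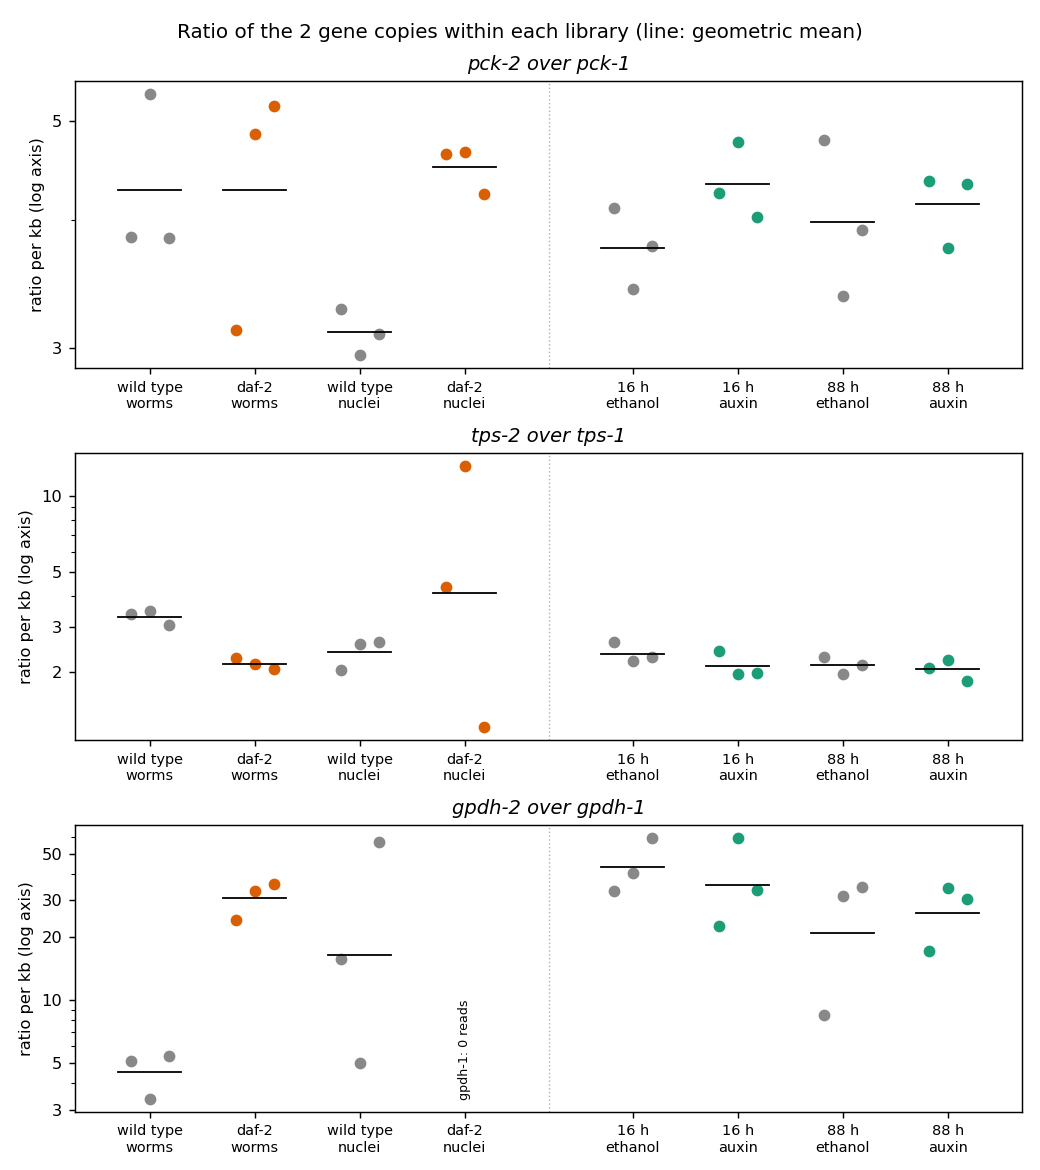
Ratio of the CPM per kilobase of exon of the 2 copies (log axis) within each library, for the 3 pairs of paralogs and 8 groups, with a line at the geometric mean. The *gpdh-2* to *gpdh-1* ratio is 3.38 to 5.39 in wild-type worms and 24.1 to 35.7 in *daf-2(e1370)* worms, and it has no value where *gpdh-1* had 0 reads.

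The next comparisons ask whether these enzymes change when *daf-2(e1370)* animals lose germline HSF-1. After 16 h none of the 8 genes passed, and the log2 fold changes lay between -0.14 for *tps-2* and 0.53 for *icl-1* with an adjusted p of 1.00 for each. Of 12634 genes tested 10 were called (0.0792%), with 560 at an unadjusted p under 0.05. *icl-1* had 68.1, 106 and 77.5 CPM on ethanol and 114, 108 and 136 CPM on auxin. Its groups did not overlap, but the 95% interval of its log2 fold change ran from -0.02 to 1.08. *pck-2* had 1027, 1028 and 1053 CPM on ethanol and 1117, 1088 and 1159 CPM on auxin, a fold of 1.08 with an interval of 0.941 to 1.24. These 2 of the 8 genes had groups apart, against 10.9% of all genes.

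After 88 h none of the 8 genes passed either (adjusted p 0.927 to 0.992), and the groups of all 8 overlapped, against 10.9% of all genes with groups apart. Here 13 of 12634 genes were called (0.103%), with 752 at an unadjusted p under 0.05. These comparisons of auxin with ethanol include any effect of auxin itself, since every animal carried the degron. The study removed genes that respond to auxin with a list from its earlier work, a step not made here. For 6 of the genes, the intervals of both comparisons were narrow for whole animals, which does not bound a change within the germline. The 95% intervals of *pck-1*, *pck-2*, *fbp-1*, *tps-1*, *tps-2* and *gpdh-2* stayed within -0.42 and 0.38 on the log2 scale at both times. Those of *icl-1* reached 1.08, and those of *gpdh-1*, at 1.45 to 7.95 CPM, ran from -1.50 to 1.41. The difference between the responses at 88 h and 16 h passed for none of the 8 genes and for 0 of 12634 genes (0%, limma), with 241 at an unadjusted p under 0.05.

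A larger difference lay between the 16 h and 88 h groups. Both ethanol groups were adult *daf-2(e1370)* animals, and they differ in the length of exposure, the stage at which it began and how the animals were synchronized, which cannot be told apart. The age of the 16 h group at collection is not stated, so whether the ages differed is not known. In the 88 h group *icl-1* and *pck-2* were higher, where 9.89% of all genes were called, 961 higher and 289 lower. The groups of 5 of the 8 genes did not overlap, against 37.1% of all genes. *icl-1* went from 68.1, 106 and 77.5 CPM to 250.3, 126 and 157 CPM, a log2 fold change of 1.05 ± 0.25 (adjusted p = 0.0349). *pck-2* went from 1027, 1028 and 1053 CPM to 1633, 1421 and 1367 CPM, a log2 fold change of 0.50 ± 0.09 (adjusted p = 0.0193). *pck-1* (0.42, adjusted p = 0.0629) and *tps-1* (0.30, adjusted p = 0.0626) were above and *gpdh-2* (-0.20, adjusted p = 0.0665) was below without overlap, short of the threshold.

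The auxin groups give the contrast between times in the other 6 libraries, a comparison added after the data were seen. It is not a separate test of the ethanol result, since both were fitted with all 12 libraries and share 1 estimate of the spread, and same-numbered ethanol and auxin libraries deviate together. Here *pck-2* was again higher (0.50 ± 0.09, adjusted p = 0.0191), and *pck-1* (0.56 ± 0.14, adjusted p = 0.0304) and *tps-1* (0.43 ± 0.10, adjusted p = 0.0253) also passed. *gpdh-2* was lower, falling from 98.6, 103 and 96.8 CPM to 79.5, 79.3 and 85.1 CPM (-0.29 ± 0.07, adjusted p = 0.0256). *icl-1* went from 114, 108 and 136 CPM to 244, 219 and 154 CPM, without overlap (0.77 ± 0.25, adjusted p = 0.0623). In this contrast 13.1% of all genes were called, and the groups of 7 of the 8 genes did not overlap, against 43.3% of all genes. Of the 8 genes, *pck-2* was the only one called in both contrasts, and both estimates were above 0 for 7 genes and below 0 for *gpdh-2*. Here 10 of 10 body wall muscle markers rose (1527 to 2568 CPM at 16 h, 3067 to 6480 CPM at 88 h), with 5 of 14 intestine, 4 of 10 hypodermis and 2 of 10 sperm markers, and their part was not tested.

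The calls between ethanol groups rest on few libraries. Without replicate 2 or 3 at 16 h, or without replicate 1 at 88 h, neither *icl-1* nor *pck-2* passed (adjusted p 0.0657 to 0.119), and the number of calls among all genes fell to 0, 0 and 46. Without replicate 3 at 88 h *icl-1* was lost (0.0634), and in a fit of the 6 ethanol libraries alone both were (0.108 and 0.0823). Marker lists differed between the ethanol groups: 7 of 10 body wall muscle markers rose (2320 to 2487 CPM at 16 h and 4126 to 6033 CPM at 88 h), as did 4 of 10 hypodermis markers (2073 to 2909 and 3569 to 4611 CPM), 4 of 14 intestine markers (37174 to 92590 and 45368 to 64496 CPM) and 2 of 10 sperm markers (19.5 to 172 and 262 to 636 CPM). The intestine sums overlapped, with means of 69830 CPM at 16 h and 57369 CPM at 88 h. The part of these lists in the differences of *icl-1* and *pck-2* was not tested.

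**Figure D4:**
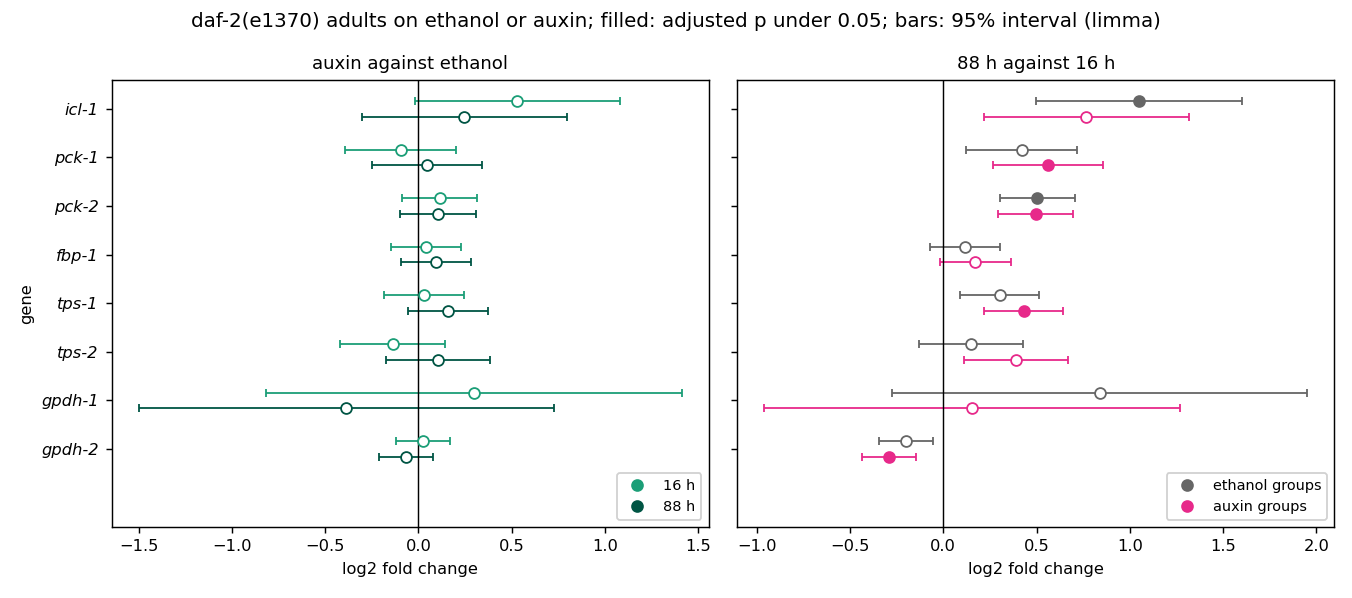
Log2 fold change of each gene in *daf-2(e1370)* adults, for auxin against ethanol at 16 h and 88 h on the left and for 88 h against 16 h within the ethanol and within the auxin groups on the right. Bars are 95% intervals and filled points have an adjusted p under 0.05: none is filled on the left, and *pck-2* is filled in both contrasts on the right.

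Other genes of the same pathways were counted from lists written from knowledge of the pathways. The gluconeogenesis list includes enzymes of reversible steps that glycolysis shares. In *daf-2(e1370)* whole worms its median was 0.89 against -0.02 for all genes, of which 18% were called (927 higher and 1526 lower). Of its 12 further genes, 4 rose, all of steps shared with glycolysis, and none fell. They were the isomerase *gpi-1* (1.47 ± 0.30, adjusted p = 0.00976), the phosphoglycerate mutase *ipgm-1* (1.03 ± 0.31, adjusted p = 0.0404), and the glyceraldehyde-3-phosphate dehydrogenase *gpd-2* (1.16 ± 0.36, adjusted p = 0.0458) with its near-identical copy *gpd-3* (1.05 ± 0.33, adjusted p = 0.0478), with which it may share reads and which is named for that reason. Of 5 genes of glycogen metabolism, the glycogenin *gyg-2* (1.84 ± 0.32, adjusted p = 0.00502) and the phosphorylase *pygl-1* (1.31 ± 0.33, adjusted p = 0.0252) rose. Of 7 genes particular to glycolysis, the pyruvate kinase *pyk-2* (1.202 ± 0.27, adjusted p = 0.0144) and the hexokinase *hxk-1* (1.06 ± 0.29, adjusted p = 0.0309) rose.

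Beside the trehalose synthases, *tre-1* (1.02 ± 0.28, adjusted p = 0.0308) and *tre-2* (1.28 ± 0.40, adjusted p = 0.0488), which encode trehalases that split the sugar, rose and *tre-5* fell by 3.43 (SE 0.69, adjusted p = 0.00988), out of 6 genes. The level of *tre-5* was low, at 3.12, 2.10 and 3.34 CPM in wild-type worms and 0.0824, 0.715 and 0.297 CPM in *daf-2(e1370)* worms. With 0 reads at 0.0672 CPM, the size of that fall is uncertain. Beside the glycerol enzymes, the aquaporin *aqp-1* rose by 1.65 (SE 0.29, adjusted p = 0.00530) and 4 of 11 genes fell. Among these were the phosphatase *pgph-3* (-1.35 ± 0.31, adjusted p = 0.0168) and the aquaporin *aqp-8* (-1.56 ± 0.36, adjusted p = 0.0173). The list of the citric acid and glyoxylate cycles includes cytosolic enzymes beside those of the mitochondrial cycle. Of its 23 genes only *idhg-1*, a subunit of isocitrate dehydrogenase, passed (0.97 ± 0.31, adjusted p = 0.0493). Leaving out 1 library gave 1 to 4 calls for gluconeogenesis, 1 to 3 for glycogen, 0 to 3 for glycolysis, 1 to 3 for trehalose, 1 to 4 for glycerol and 0 to 5 for the citric acid cycle. In germline nuclei no gene of the 6 lists passed (limma).

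Between the ethanol groups, 8 of 23 genes of the list of the citric acid and glyoxylate cycles rose at 88 h and none fell. The list median was 0.31 against 0.03 for all genes, of which 9.89% were called. Leading the list were the cytosolic aconitase *aco-1* (0.72 ± 0.12, adjusted p = 0.0187), the citrate synthase *cts-1* (0.55 ± 0.12, adjusted p = 0.0252) and the cytosolic isocitrate dehydrogenase *idh-1* (0.45 ± 0.10, adjusted p = 0.0275). Of 12 genes of gluconeogenesis 3 rose, with *gpd-3* (0.59 ± 0.10), *gpd-2* (0.62 ± 0.14) and the aldolase *aldo-1* (0.92 ± 0.25). In the glycerol list 4 of 11 genes rose, led by the aquaporins *aqp-7* (1.14 ± 0.22) and *aqp-1* (1.08 ± 0.24) and by *osm-7* (1.09 ± 0.22), and 2 fell. The phosphofructokinase *pfk-1.1* (0.49 ± 0.10) and the glycogenin *gyg-1* (1.06 ± 0.25) rose and no trehalose gene did. Without replicate 2 or 3 at 16 h each of these counts fell to 0. Between the auxin groups 6 of 23 genes of the citric acid cycle list and 3 of 12 gluconeogenesis genes rose, beside 13.1% of all genes called. The first of each list were *aco-1* (0.76 ± 0.12, adjusted p = 0.0183) and *gpd-3* (0.61 ± 0.10, adjusted p = 0.0183). Between auxin and ethanol no gene of the 6 lists passed at either time (limma).

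**Figure D5:**
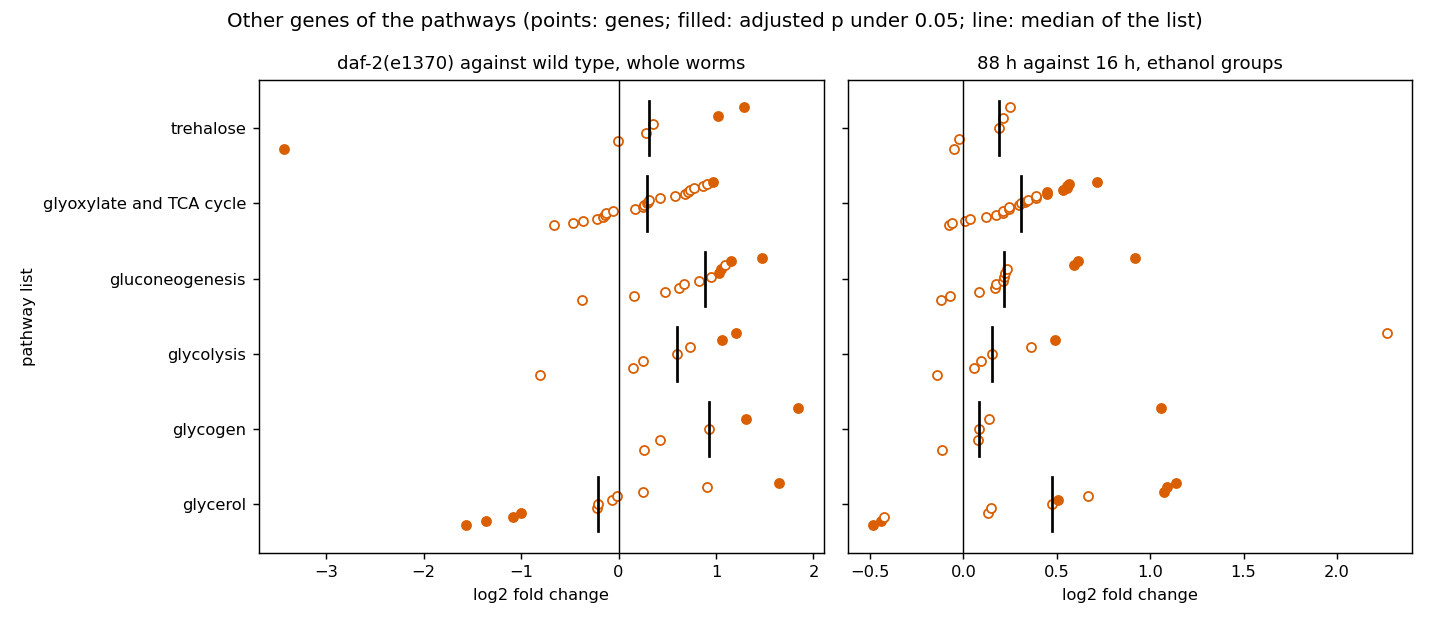
Log2 fold change of the other genes of 6 pathway lists, for *daf-2(e1370)* against wild type in whole worms (left) and for 88 h against 16 h on ethanol (right). Each point is a gene, filled points have an adjusted p under 0.05, and the black line is the median of the list, such as 0.89 for gluconeogenesis on the left.

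Nuclei and worms differed in many genes of these lists, as over all genes, of which 35.3% were called in the wild type (all-gene median -0.34). There 11 of 23 genes of the citric acid cycle list passed as lower and 2 as higher, and 9 of 12 gluconeogenesis genes passed as lower. The lower genes were led by *idh-1* (-2.77 ± 0.28, adjusted p = 2.59e-05) and *ipgm-1* (-2.82 ± 0.34, adjusted p = 5.84e-05). Of the others, 3 of 6 trehalose, 2 of 7 glycolysis, 2 of 5 glycogen and 5 of 11 glycerol genes were lower, and 0, 1, 1 and 2 were higher. Leaving out 1 library gave, in either direction, 1 to 2 calls for trehalose, 2 to 3 for glycolysis, 0 to 1 for glycogen and 6 to 7 for glycerol. The same omissions gave 8 to 13 calls for the citric acid cycle list and 8 to 9 for gluconeogenesis. In *daf-2(e1370)*, where 53.3% of all genes were called (all-gene median -0.63), 15 of 23 genes of the citric acid cycle list and 10 of 12 gluconeogenesis genes were lower. No further gluconeogenesis gene passed as higher in nuclei in either strain (limma), whereas *fbp-1* did in both.

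As a description of likeness, each of the 8 genes was correlated with 11666 named genes over the 12 libraries of each table, which share groups, depth and preparation, and the 2 coefficients were averaged. *pck-1* and *pck-2* were alike (mean r = 0.89, with 0.84 in the depletion table and 0.94 in the nuclei table), and *pck-2* was the second nearest of all genes to *pck-1*, after the collagen gene *col-103* (0.89). Nearest to *pck-2* were *epic-1* (0.95), the glucose transporter gene *fdgt-1* (0.95) and *epic-2* (0.94), and *fdgt-1* was also the nearest gene to *tps-2* (0.88). *tps-1* lay nearest to the acid ceramidase gene *asah-1* (0.89), *icl-1* to *ptr-21* (0.84), *col-3* (0.84) and the acyl-CoA synthetase gene *acs-2* (0.84). *fbp-1* lay nearest to *T05F1.11* (0.92) and the mitochondrial pyruvate carrier gene *mpc-1* (0.90).

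Neither glycerol enzyme shared a neighbor with the other. *gpdh-1* lay nearest to the cytochrome P450 gene *cyp-33C8* (0.87) and *gpdh-2* to *cest-2.2* (0.92). The correlation of *gpdh-2* with *pck-2* was -0.93 in the depletion table and 0.35 in the nuclei table. That of *fbp-1* with *gpdh-1* was 0.47 in the depletion table and -0.77 in the nuclei table, so both pairs differed in sign between the tables.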

How the data were processed

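The authors aligned the reads to WBcel235 with STAR, counted them per gene with featureCounts (multi-mapped and overlapping reads as fractions), dropped genes of low expression and deposited log2 CPM made with edgeR. The study names a version of STAR only. The authors' own comparisons (log2 fold changes, F statistics, p-values, FDR) were not used. All 24 columns were matched to samples by title, and 0 were left out. The lowest log2 value of each table, -4.09 and -3.89, marks 0 reads, and depth was read back from the spacing of low values.

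A gene entered the tests if 25% or more of the libraries in its table reached 1 CPM (12634 and 13613 genes). The deposited log2 values were fitted with limma 3.58.1 under R 4.3.3 (a moderated two-sided test with a mean-variance trend), p-values were adjusted by Benjamini-Hochberg across every gene tested, and 0.05 was the threshold. The *daf-2(e1370)* comparisons used the 6 libraries of a preparation, the others all 12 of a table. The script was tested on simulated data. A pseudocount of 1 was an alternative only. Other alternatives were no filter, median-of-ratios scaling, other libraries in the fit, a replicate block and leaving out each library.

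The 8 genes, the pathway and marker lists and the comparisons were chosen with earlier results of these data known. Named genes are the 8 genes, up to 3 genes past the threshold per pathway list and comparison, taken by smallest adjusted p, the 3 genes nearest each of the 8 by mean correlation, and markers at or near 0. Replicate numbers were read as pairs if the deviations of each same-numbered pair from its group means correlated above 0.1. This held for ethanol and auxin at 16 h (0.62, 0.56 and 0.12) and 88 h (0.66, 0.27 and 0.28) and for both wild-type preparations (0.117, 0.113 and 0.138). By that rule it did not hold for *daf-2(e1370)* nuclei and worms (0.073, 0.097 and 0.088) or for *daf-2(e1370)* against wild type. The ethanol groups across times (0.43, 0.23 and 0.047) failed it by replicate 3, and 16 h replicate 2 correlated more with 88 h replicate 3 (0.35). Auxin replicate 3 correlated more with ethanol replicate 2 than with ethanol replicate 3, at 0.18 after 16 h and 0.42 after 88 h. The study saved nuclei and whole worm lysate from each preparation of nuclei. Values under 0.1 therefore do not show that *daf-2(e1370)* nuclei and worms are unpaired, and the main fits leave any pairing out. Exon lengths, positions and overlaps are from the Ensembl annotation of WBcel235. Scripts ran in Python with numpy, pandas, scipy and matplotlib.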

Additional observations from a re-analysis of the deposited data

How the results depend on the processing

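With all 12 libraries in the fit, 2 of the 8 genes changed in *daf-2(e1370)* worms and 3 in *daf-2(e1370)* nuclei, in place of 4 and 1. With the replicate block, 0 genes changed in *daf-2(e1370)* nuclei and 4 between the ethanol groups, where a fit of the compared groups alone gave 0, and the auxin groups in their place gave 4. The block added *pck-1* (0.0322) and *gpdh-2* (0.0413) between ethanol groups and ended the call of *pck-2* (0.0831) in nuclei. In neither comparison were the numbers taken as pairs, though ethanol replicates 1 and 2 correlated across times at 0.43 and 0.23. Apart from *icl-1* and *tps-2* between wild-type preparations, the block changed no call in a comparison taken as paired. Over all genes, the calls between ethanol groups numbered 2069 with a pseudocount of 1, 3164 with the block and 0 in the compared groups alone, against 1250. Those in *daf-2(e1370)* worms numbered 798 with all 12 libraries and 4122 with the block, against 2453, those in nuclei 1791, 0 and, with median-of-ratios scaling, 839, against 524, and those of the difference between both 24 with a pseudocount of 1 and 131 with the block, against 14. In the compared groups alone, depletion for 88 h gave 8 in place of 13. Leaving out 1 library gave 0 to 2359 between ethanol groups, 778 to 3588 in *daf-2(e1370)* worms and 0 to 305 in nuclei. The numbers of *daf-2(e1370)* nuclei and worms were not taken as pairs, though each library correlated best with its own number, and the replicate block kept the same 4 calls there. Leaving out 1 library gave 0 to 2 changed genes between ethanol groups, 1 to 3 in *daf-2(e1370)* worms, 0 to 1 in *daf-2(e1370)* nuclei, 2 to 6 between both preparations of the wild type, 2 to 4 between those of *daf-2(e1370)*, and 0 in the comparisons of depletion and of differences. Estimates near 0 changed sign in some omissions, none of them called. After 16 h of depletion the omissions ran from -0.027 to 0.12 for *fbp-1*, -0.019 to 0.090 for *tps-1*, -0.020 to 0.64 for *gpdh-1* and -0.00085 to 0.052 for *gpdh-2*. After 88 h they ran from -0.097 to 0.14 for *pck-1*, -0.0079 to 0.24 for *tps-2* and -0.74 to 0.21 for *gpdh-1*. Between both depletions they ran from -0.0021 to 0.24 for *pck-1*, -0.081 to 0.068 for *pck-2* and -0.022 to 0.12 for *fbp-1*. For *daf-2(e1370)* they ran from -0.045 to 0.29 for *fbp-1* in worms, and in nuclei from -0.73 to 0.041 for *icl-1* and -0.60 to 0.76 for *tps-1*. Between both preparations they ran from -0.11 to 0.66 for *icl-1* and -0.32 to 0.056 for *pck-1*. The difference between depletions for *pck-2* turned from -0.0084 to 0.011 with median-of-ratios scaling. That between preparations for *gpdh-1* turned from -1.64 to 0.78 with a pseudocount of 1, and depends on the value given to 0 reads. The cause of these changes was not tested. In nuclei, 3 reads are 0.266 to 0.470 CPM, which limits *gpdh-1* and *tps-1*.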
